A study of Mus musculus with 47 samples.

Results

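Solute carriers are the membrane proteins that move amino acids, sugars, ions, vitamins, nucleotides and transmitters across the plasma membrane and the membranes of mitochondria, lysosomes, synaptic vesicles and the Golgi apparatus. Protein-coding genes with a symbol of the form *Slc* followed by a digit and with a mean of 5 TPM or more (transcript level per transcript length, scaled to the same total in each library) over 47 cortical libraries were taken, leaving out *Slc2a1*, *Slc1a2*, *Slc1a3* and *Slc32a1*, and 179 of the 371 such genes in the TPM table met the rule. Of the others, 65 lay between 1 and 5 TPM and 123 under 1 TPM. The mean level thus chose the members, and levels are given as a description. Just inside the threshold were *Slc40a1* at 5.12 TPM, *Slc7a6* at 5.14 TPM and *Slc1a6* at 5.15 TPM, and just outside it *Slc19a2* at 4.90 TPM, *Slc46a3* at 4.82 TPM and *Slc9a9* at 4.75 TPM. The 3 members *Slc29a3*, *Slc22a4* and *Slc40a1* had a mean of at least 5 TPM in control mice only, and all others in both diets. The symbol also brought in 4 genes that are named after a carrier and are not transporters, the scaffold proteins *Slc9a3r1* and *Slc9a3r2*, the adaptor *Slc4a1ap* and *Slc7a6os*, which lies opposite to *Slc7a6*.

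RNA was sequenced from the cortex of male C57BL/6J mice of about 3 months that had been fed control chow (23 libraries) or AIN-76A chow with PLX5622 (24 libraries) for 10 days. PLX5622 inhibits CSF1R, the receptor on whose signaling microglia depend, and acts on every cell with that receptor in the body. Mice of both diets were harvested at Zeitgeber times (ZT) 2, 6, 10, 14, 18 and 22, where the light phase starts at ZT0 and the dark phase at ZT12, with 4 mice in each of the 12 groups apart from 3 in the control group at ZT14. All mice were wild type and were housed 4 to a cage. How cages were spread over the groups is not given in the sources used here, so effects of cage and of group cannot be told apart.

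In cortex, transporters of the *Slc6* and *Slc38* families clear and recycle GABA, glycine and glutamine, *Slc17a7* fills the vesicles of glutamatergic neurons, *Slc12a5* and *Slc12a2* set neuronal chloride, and the *Slc25* family links the cytosol to mitochondrial metabolism. Large neutral amino acids cross the blood-brain barrier through the pair of *Slc7a5* and *Slc3a2*, and cystine enters astrocytes through *Slc7a11* paired with the same *Slc3a2*. Some carriers are typical of one cell type, such as the fructose transporter *Slc2a5* of microglia.

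Promoter windows from RefSeq (GRCm38.p6, 250 bases before to 50 after a transcript start) were found for 144 of the 179 members, in 196 windows, and for 10 of the 13 members that passed a test for diet or time of day. They were searched on both strands for the E-box CACGTG, which clock proteins can bind, for the D-box TTATGTAA or TTACGTAA, and for the amino acid response element TGATGNAA. An E-box was present in 13.3% of the members' windows and in 7.15% of all 32851 windows, the amino acid response element in 1.53% and 3.97%, and a D-box in 0 and 1.06%. Members were chosen by their level in cortex and the 32851 windows were not, so these shares are not read as a trait of solute carriers. The windows of 3 of these 10 members held a motif, and these genes passed the test for diet (*Slc7a11*) or for time of day (*Slc36a1*, *Slc25a33*). The bases from 120 before to 10 after their start are shown with the motifs in capitals. They lie at chr3:50443604-50443733 on the minus strand, chr11:55204220-55204349 on the plus strand and chr4:149774258-149774387 on the minus strand.
Slc7a11: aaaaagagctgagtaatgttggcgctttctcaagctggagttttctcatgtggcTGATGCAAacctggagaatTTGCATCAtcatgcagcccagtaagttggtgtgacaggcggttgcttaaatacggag
Slc36a1: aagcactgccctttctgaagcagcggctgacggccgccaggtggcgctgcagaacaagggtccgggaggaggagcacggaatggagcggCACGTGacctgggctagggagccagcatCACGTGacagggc
Slc25a33: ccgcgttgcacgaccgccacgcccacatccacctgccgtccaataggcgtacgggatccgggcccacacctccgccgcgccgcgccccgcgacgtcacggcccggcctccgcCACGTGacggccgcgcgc
The *Slc7a11* window held 2 amino acid response elements in opposite orientation, that of *Slc36a1* held 2 E-boxes, one of which overlaps the start, and that of *Slc25a33* held 1 E-box. A match is a description of the letters and not of binding. No window was given for *Slc7a5* and *Slc14a1*.

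The vesicular glutamate transporter *Slc17a7* had the highest level, with a mean of 552.6 TPM, followed by the mitochondrial ADP/ATP carrier *Slc25a4* with 532.4 TPM, the mitochondrial phosphate carrier *Slc25a3* with 357.6 TPM and another ADP/ATP carrier, *Slc25a5*, with 288.9 TPM. *Slc22a17*, a receptor for lipocalin, had 288.8 TPM and the calcium-regulated ATP-magnesium carrier *Slc25a23* 252.1 TPM. The GABA transporter *Slc6a11* had 132.0 TPM, the mitochondrial glutamate carrier *Slc25a22* 122.5 TPM and the potassium-chloride cotransporter *Slc12a5* 120.2 TPM. The 10 genes with the highest level held 41.4% of the summed TPM of the members. By role, the 33 mitochondrial carriers held 34.6% of it with a median of 26.1 TPM, and the 35 carriers of amino acids, transmitters and peptides 16.9% with a median of 22.1 TPM. The 24 metal carriers had a median of 13.4 TPM, with the heme transporter *Slc48a1* highest, and the 14 sugar and monocarboxylate carriers one of 13.6 TPM, with the neuronal glucose transporter *Slc2a3* highest at 43.8 TPM.

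**Figure D1:**
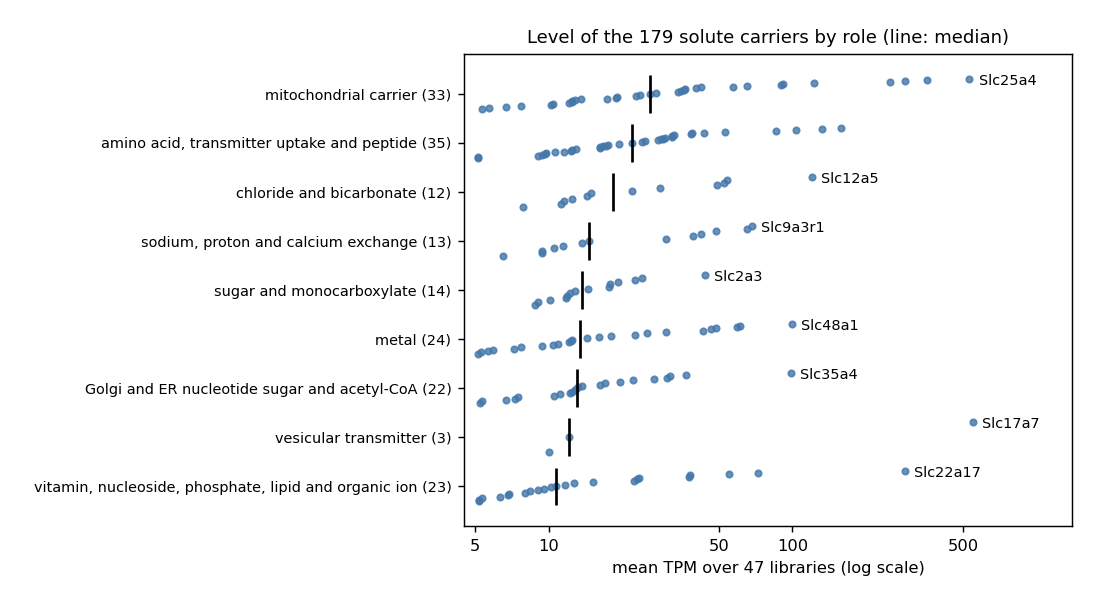
Mean TPM over 47 libraries (x axis, log scale) of the 179 solute carriers in 9 role groups (y axis, number of genes in brackets), 1 point per gene, with a black line at the median of each group and, in 8 groups, the name of the highest gene. Levels run from 5.12 to 552.6 TPM, and mitochondrial carriers have the highest group median.

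The members' summed level was 5865 to 8072 TPM in control mice (median 6732) and 5716 to 8053 TPM in PLX5622 mice (median 6762), so the ranges of the diets overlapped. Between libraries the coefficient of variation of a member was 7.20% to 45.2% (median 17.0%, and 17.4% over the 14580 genes tested). It was largest for *Slc17a6*, the vesicular glutamate transporter typical of thalamus and midbrain, which ranged from 4.97 to 25.6 TPM, followed by the monocarboxylate transporter *Slc16a7* (3.74 to 19.1 TPM) and the glutamate transporter *Slc1a6* (3.11 to 11.8 TPM). Reads counted on genes ranged from 16597987 to 27626161 per library, and the median count of a member from 79 to 23712 over the libraries. Markers of neurons (summed 1927 to 3246 TPM over 6 genes), astrocytes (1227 to 2006 TPM over 6 genes) and oligodendrocytes (3760 to 8059 TPM over 6 genes) were present in every library. Markers of choroid plexus (summed 69.3 to 1280 TPM over 8 genes) and of striatum (199 to 1063 TPM over 6 genes) varied widely between libraries of both diets.

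The diets were compared with limma on log2(TPM + 1), with a cosine and a sine term of ZT in the model, and a gene was called at a Benjamini-Hochberg adjusted p under 0.05 over the 14580 genes whose mean reached 1 TPM. Of the 179 solute carriers, 4 were called (2.23%, against 3.45% of all genes tested). The urea transporter *Slc14a1*, the choline transporter *Slc44a1* and the cystine-glutamate exchanger *Slc7a11* were higher in PLX5622 mice (3 genes, 1.68%, against 0.871% of all genes), and *Slc9a3r1*, a scaffold of sodium-proton exchangers and other membrane proteins, was lower (1 gene, 0.559%, against 2.58%). Without adjustment, 19 members had a p under 0.05 (10.6%, against 16.2% of all genes), 14 of them higher in PLX5622 mice and 5 lower, where all genes had 10.1% higher and 6.16% lower. On the counts edgeR called 14 members, 8 higher and 6 lower (7.82%, against 7.08% of all genes), and DESeq2 15 (against 8% of all genes), each with the same 4 among them. Median-of-ratios scaling of the TPM columns called 4 higher and 4 lower. The fitted log2 changes of the members ran from -0.30 to 0.24 with a median of 0.03, as for all genes (0.03). For 161 members (89.9%) the 95% confidence interval of the diet difference lay within a 1.25-fold change in either direction, against 86.4% of all genes.

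**Figure D2:**
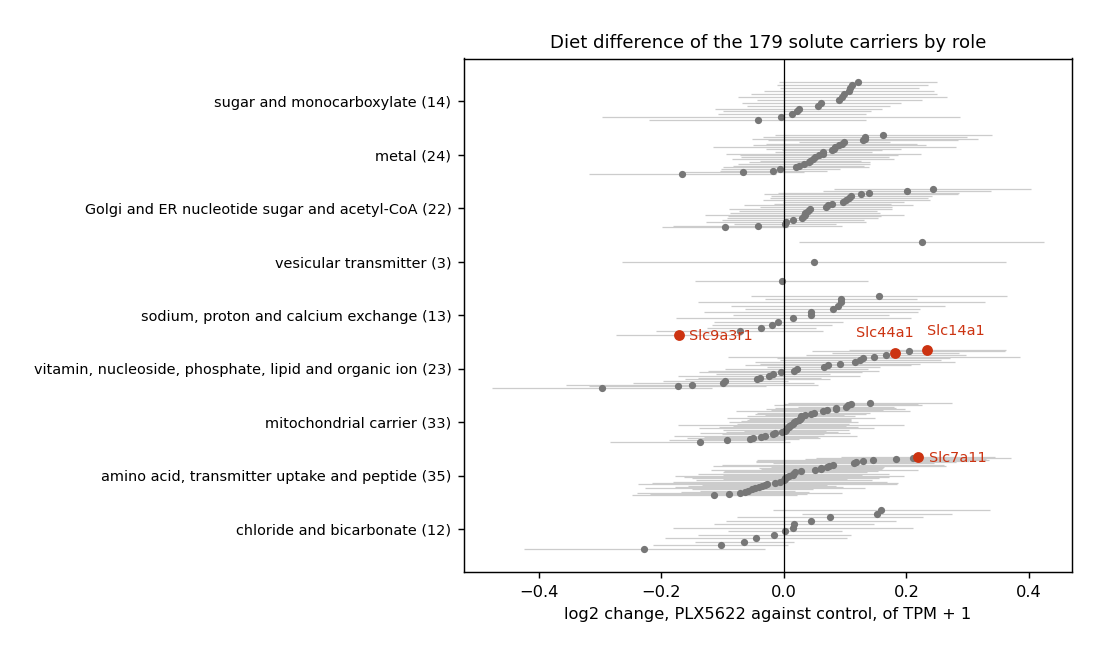
Fitted log2 change of TPM + 1 between PLX5622 and control mice (x axis) for the 179 solute carriers, 1 point per gene with its 95% confidence interval, grouped by role (y axis, number of genes in brackets). The 4 called genes are red and named, and all estimates lie between -0.30 and 0.24.

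*Slc14a1* (ENSMUSG00000059336, chromosome 18), the urea transporter of astrocytes and erythrocytes, had 4.08 to 11.1 TPM in control mice (median 5.59) and 5.32 to 9.31 TPM in PLX5622 mice (median 6.60). The ranges overlapped, and 23 of the 24 PLX5622 libraries lay above the control median. The control library with 11.1 TPM, replicate 2 at ZT10, stood alone, since no other control library exceeded 6.90 TPM. The log2 difference was 0.23 (SE 0.064, limma adjusted p = 0.0250), with a higher PLX5622 mean at 6 of 6 ZTs, and the call was kept with each library left out in turn. *Slc44a1* (ENSMUSG00000028412, chr4:53440413-53622478), which carries choline for phospholipid synthesis and is abundant in oligodendrocytes, had 29.1 to 43.6 TPM in control mice (median 35.7) and 30.9 to 52.0 TPM in PLX5622 mice (median 40.0). Of the PLX5622 libraries, 5 lay above every control library. Its log2 difference was 0.18 (SE 0.051, limma adjusted p = 0.0321) and its PLX5622 mean was higher at 6 of 6 ZTs.

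*Slc7a11* (ENSMUSG00000027737, chr3:49892526-50443614), which takes up cystine for glutathione in exchange for glutamate, had 5.39 to 10.8 TPM in control mice (median 8.41) and 7.70 to 13.8 TPM in PLX5622 mice (median 9.77). The ranges overlapped, and 8 PLX5622 libraries lay above every control library. The log2 difference was 0.22 (SE 0.062, limma adjusted p = 0.0342), with a higher mean at 5 of 6 ZTs. Its partner *Slc3a2* had a mean of 85.5 TPM in control and 86.4 TPM in PLX5622 mice (log2 difference 0.01, 95% confidence interval -0.10 to 0.13). *Slc9a3r1* (ENSMUSG00000020733, chr11:115163341-115181181) had 56.0 to 90.6 TPM in control mice (median 74.6) and 49.3 to 80.1 TPM in PLX5622 mice (median 65.3). Only 1 PLX5622 library lay above the control median. Its log2 difference was -0.17 (SE 0.051, limma adjusted p = 0.0437), with a lower mean at 5 of 6 ZTs.

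**Figure D3:**
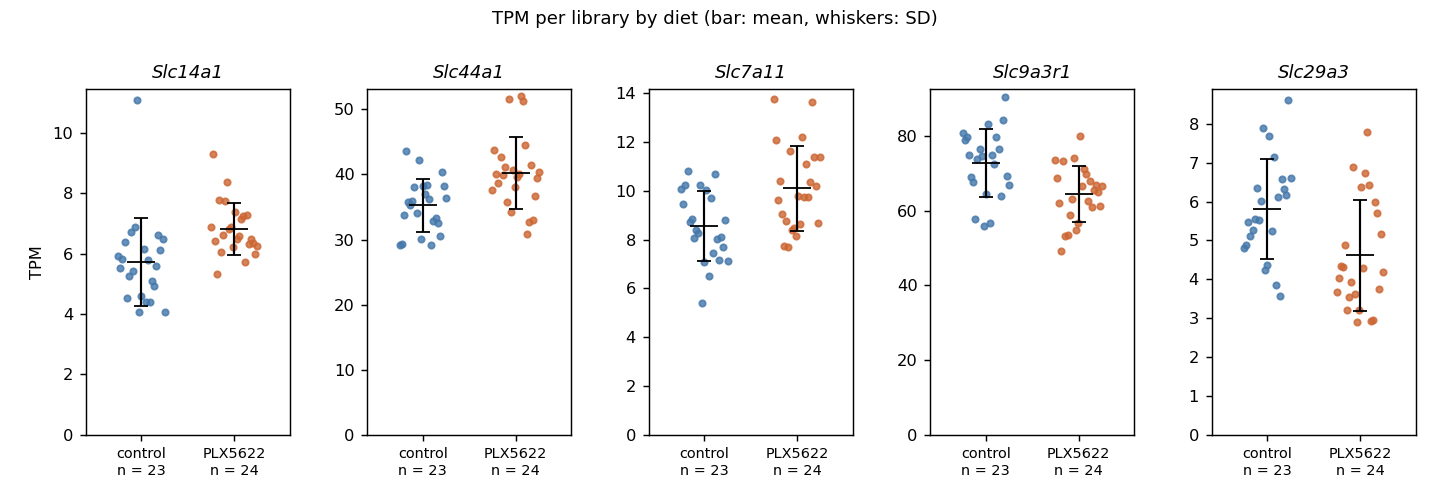
TPM in each library (y axis, starting at 0) by diet (x axis, 23 control and 24 PLX5622 libraries) for the 4 solute carriers called for diet and for *Slc29a3*, with the mean as a bar and the SD as whiskers. In each gene the ranges of the diets overlap, from 2.91 to 8.61 TPM in *Slc29a3* to 49.3 to 90.6 TPM in *Slc9a3r1*.

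On the TPM + 1 scale the fitted differences amounted to 17.6%, 13.5% and 16.4% above control for *Slc14a1*, *Slc44a1* and *Slc7a11* and 11.3% below it for *Slc9a3r1*. With 1 library left out at a time, *Slc44a1* lost its call in 8, *Slc7a11* in 12 and *Slc9a3r1* in 29 of 47 fits, with adjusted p up to 0.0552 (without control replicate 1 at ZT18), 0.0579 (without PLX5622 replicate 1 at ZT2) and 0.0724 (without PLX5622 replicate 4 at ZT2). With the mean log2 level of the choroid plexus list as a covariate, which was tried after seeing the data, none of the 4 passed (adjusted p = 0.178, 0.109, 0.0799 and 0.0593 in the same order), with log2 differences of 0.18, 0.17, 0.22 and -0.18. That list itself was higher in PLX5622 mice in 3 of its 8 genes, with a summed level of 69.3 to 1198 TPM in control (median 502.6) and 149 to 1280 TPM in PLX5622 mice (median 812.8). Of 5 blood markers, given here because erythrocytes hold *Slc14a1*, 0 were called for diet in limma, at a summed 267 to 3034 TPM in control and 193 to 2919 TPM in PLX5622 mice. In bulk tissue, fewer cells of a type and less RNA per cell cannot be told apart, nor can more cells and more RNA per cell.

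*Slc29a3*, a lysosomal nucleoside transporter, missed the threshold narrowly. It had 3.57 to 8.61 TPM in control mice (median 5.56) and 2.91 to 7.79 TPM in PLX5622 mice (median 4.24), with 6 PLX5622 libraries below every control library. Its log2 difference was -0.30 (SE 0.090, limma adjusted p = 0.0508), the PLX5622 mean was lower at 6 of 6 ZTs, and edgeR on the counts called it with a log2 difference of -0.40 (adjusted p = 1.302e-07). The iron exporter *Slc40a1* had a log2 difference of -0.17 in limma (adjusted p = 0.260) and of -0.27 in edgeR (adjusted p = 0.00222). Its highest library, PLX5622 replicate 2 at ZT22, had 12.9 TPM, where the next PLX5622 library had 5.78 TPM. In limma without that library the difference was -0.22. The library was picked after its value was seen, so no support is drawn from this fit. Only 2 of the 24 PLX5622 libraries lay above the *Slc40a1* control median of 5.61 TPM. *Slc29a3* and *Slc40a1* had means of 5.80 and 5.42 TPM in control and 4.62 and 4.84 TPM in PLX5622 mice. They met the 5 TPM rule through the control mice, which favoured a lower value in PLX5622 mice. No support is drawn from these differences.

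The other members with the largest differences did not pass in limma. Above control were the sulfate donor transporter *Slc35b2* (log2 difference 0.24, adjusted p = 0.0858), the vesicular polyamine transporter *Slc18b1* (0.23, 0.240), the proline transporter *Slc6a20a* (0.21, 0.147), the vitamin C transporter *Slc23a2* (0.20, 0.160), *Slc35f5* (0.20, 0.0970) and the neutral amino acid transporter *Slc6a15* (0.18, 0.186). Below control were the anion exchanger *Slc26a6* (-0.23, 0.223), the nucleoside transporter *Slc29a1* (-0.17, 0.202), *Slc22a4* (-0.15, 0.480), *Slc25a34* (-0.14, 0.346) and the astrocytic serine-alanine exchanger *Slc7a10* (-0.11, 0.402). On the counts edgeR called *Slc35f5* (log2 difference 0.15, adjusted p = 0.0215) and *Slc6a15* (0.16, adjusted p = 0.0132), as did DESeq2, and none of the other 9, with a log2 difference of 0.04 for *Slc35b2*. Median-of-ratios scaling of TPM called *Slc35f5* and *Slc29a1*.

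By role, limma calls for diet fell in 3 of the 9 groups. Of the 23 carriers of vitamins, nucleosides, phosphate, lipids and organic ions, 2 were higher and 0 lower, with a median log2 difference of 0.02. Of the 35 carriers of amino acids, transmitters and peptides 1 was higher, with a median of 0.01, and of the 13 genes of sodium, proton and calcium exchange 1 was lower, with a median of 0.04. None of the 33 mitochondrial carriers was called in limma, and their intervals were the narrowest, with a median SE of 0.047. None of the 24 metal, 22 Golgi and endoplasmic reticulum, 14 sugar and monocarboxylate, 12 chloride and bicarbonate or 3 vesicular carriers was called either, in limma. The 14 edgeR calls on the counts were spread over 8 groups, with 3 among the vitamin, nucleoside, phosphate, lipid and organic ion carriers, 3 among those of amino acids, transmitters and peptides, 3 among those of the Golgi and endoplasmic reticulum, 1 in each of 5 other groups and 0 among the vesicular carriers. The high-level transporters of neurons lay close to 0, with log2 differences of -0.0035 for *Slc17a7* (95% confidence interval -0.14 to 0.14) and -0.04 for *Slc12a5* (-0.19 to 0.10).

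Other textbook carriers of neurons and glia did not pass for diet or for time of day in limma. On the counts edgeR called *Slc12a2* higher in PLX5622 mice, and DESeq2 called it for diet as well. For time of day edgeR called *Slc38a3* and *Slc30a1* (adjusted p = 0.0487 for *Slc30a1*). DESeq2 called *Slc38a3*, *Slc30a1* and *Slc39a10* (adjusted p = 0.0370 and 0.0448 for the last 2). Among those of amino acids, the neuronal glutamate transporter *Slc1a1* had a mean of 26.8 TPM in control and 29.3 TPM in PLX5622 mice (log2 difference 0.12), the serine and alanine transporter *Slc1a4* 21.9 and 22.2 TPM (0.02), the glutamine transporter *Slc38a1* 28.6 and 29.2 TPM (0.02) and the glycine transporter *Slc6a9* 32.6 and 31.5 TPM (-0.05). Exons of other genes cover 31.9% of the exon bases of *Slc1a1* and 30.3% of those of *Slc6a9*. The vesicular neutral amino acid transporter *Slc6a17* had 102 and 104 TPM. Among the zinc carriers, the vesicular *Slc30a3* had 45.3 and 47.3 TPM (0.06), the exporter *Slc30a1* 9.11 and 9.73 TPM (0.09) and the importer *Slc39a10* 46.1 and 50.6 TPM (0.13), and the iron importer *Slc11a2* had 13.9 and 14.9 TPM (0.09). Among these the interval reached past a 1.25-fold difference for the sodium-calcium exchangers *Slc8a1* (0.09, 95% confidence interval -0.14 to 0.33) and *Slc24a2* (0.15, -0.05 to 0.36) and for the bicarbonate transporter *Slc4a10* (0.16, -0.02 to 0.34). The exchanger *Slc8a2* had 64.1 and 66.1 TPM (0.04). The mitochondrial aspartate-glutamate carrier *Slc25a12* had 62.5 and 67.2 TPM (0.10).

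Carriers typical of a cell type were grouped by textbook lists. For microglia and macrophages, 3 of 6 listed carriers had a mean of 1 TPM or more and were tested, and limma called 2 of these lower in PLX5622 mice, both under the 5 TPM of the members. These 2 reached 1 TPM through the control mice, so the filter favoured a difference, and no support is drawn from their number. The 3 left out had means of 1.45 TPM in control and 0.488 TPM in PLX5622 mice (*Slc7a7*), 1.19 and 0.203 TPM (*Slc15a3*) and 1.19 and 0.663 TPM (*Slc37a2*). The fructose transporter *Slc2a5* had a mean of 3.16 TPM in control and 0.633 TPM in PLX5622 mice (log2 difference -1.34, SE 0.10, limma adjusted p = 2.467e-15), and its ranges did not overlap, since no control library was under 1.64 TPM and no PLX5622 library over 1.53 TPM. The phagosomal metal transporter *Slc11a1* had 2.94 and 0.850 TPM (log2 difference -1.09, SE 0.15, adjusted p = 5.138e-07). Of the other carriers of 1 to 5 TPM, limma called *Slc25a45* for diet, at 1.93 TPM in control and 1.14 TPM in PLX5622 mice (log2 difference -0.44, adjusted p = 9.174e-07). In the same libraries 10 of 10 microglial markers were lower, with a sum of 464 to 707 TPM in control and 22.3 to 109 TPM in PLX5622 mice. Of 8 astrocytic carriers *Slc14a1* was the only one called for diet in limma, while *Slc6a11*, *Slc4a4*, *Slc25a18*, *Slc38a3*, *Slc39a12*, *Slc15a2* and *Slc7a10* had log2 differences from -0.11 to 0.08. Of the 6 astrocyte markers outside the carriers *Gfap* was called, at 149 TPM in control and 218 TPM in PLX5622 mice (log2 difference 0.56, SE 0.087). None of 9 neuronal, 6 endothelial or 4 choroid plexus carriers was called for diet in limma. The oligodendrocyte carrier tested was *Slc44a1* itself, beside 0 of 6 oligodendrocyte markers called (median log2 difference 0.13).

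Time of day was tested over both diets with the F test of the cosine and sine terms at a period of 24 h. It called 9 of the 179 members (5.03%, against 5.26% of all genes tested), and 38 had an unadjusted p under 0.05 (21.2%, against 19.8%). On the counts edgeR called 30 (16.8%, against 14% of all genes) and DESeq2 34 (against 16.2% of all genes), with 7 and 8 of the 9 among them. The fitted amplitudes of the 9, from the fitted mean to the fitted peak on the log2(TPM + 1) scale, were 0.11 to 0.30. With each library left out in turn, *Slc7a5*, *Slc16a11*, *Slc6a13* and *Slc36a1* kept their calls in all 47 fits, while *Slc25a29* lost its call in 1 (control replicate 1 at ZT14, adjusted p = 0.0527), *Slc35e4* in 9, *Slc6a20a* in 26 and *Slc25a33* in 30. The largest adjusted p was 0.0638 for *Slc35e4* (without PLX5622 replicate 2 at ZT22) and 0.0950 for *Slc25a33* (without control replicate 3 at ZT14).

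*Slc7a5* (ENSMUSG00000040010, chr8:121881150-121907694), the light chain of the transporter for leucine, tyrosine and tryptophan, had the smallest p. Its median over both diets was 25.4 TPM at ZT2, 25.6 TPM at ZT6, 33.5 TPM at ZT10, 38.8 TPM at ZT14, 26.7 TPM at ZT18 and 27.8 TPM at ZT22. The 7 libraries of ZT14 ran from 28.2 to 47.1 TPM and those of ZT2 from 21.4 to 29.8 TPM, and the ZT14 median lay above the highest library of every other ZT. The fitted peak was at ZT13.2 (SE 0.71 h) with an amplitude of 0.24 (SE 0.045, limma adjusted p = 0.00184) and a peak 1.39-fold above the trough. In control mice the fit gave an amplitude of 0.20 (SE 0.064) and a peak at ZT12.7, and in PLX5622 mice 0.27 (SE 0.062) and ZT13.6. Its heavy chain *Slc3a2* was also highest at ZT14, where its median was 107.1 TPM against 79.0 to 88.1 TPM at the other ZTs. The fitted peak of *Slc3a2* was at ZT13.0, but it did not pass in limma (amplitude 0.11, adjusted p = 0.198). It passed in edgeR and DESeq2 on the counts (adjusted p = 0.0391 and 0.0309) and in limma with ZT as a factor (adjusted p = 0.0475). In limma it did not pass with median-of-ratios scaling (adjusted p = 0.0813) or with the replicate number as a block (0.0927). With the share of mitochondrially encoded transcripts as a covariate its adjusted p was 0.222 and its amplitude 0.065. The glutamine and alanine transporter *Slc38a2* had a median of 40.2 TPM at ZT14 against 24.1 to 29.4 TPM at the other ZTs and missed the threshold narrowly (peak ZT14.9, adjusted p = 0.0536).

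*Slc36a1* (ENSMUSG00000020261, chr11:55204350-55236330), a proton-coupled amino acid transporter of lysosomes and the plasma membrane, was lowest at ZT6 with 10.9 to 16.6 TPM (median 13.9) and at ZT10 with 12.3 to 17.1 TPM (median 14.8). It was highest at ZT14 with 18.5 to 23.8 TPM (median 21.1), with no overlap between ZT14 and either of these, and its fitted peak was at ZT19.0 (amplitude 0.20, SE 0.044, adjusted p = 0.0128). *Slc6a13* (ENSMUSG00000030108, chr6:121300227-121337733), a GABA and taurine transporter of meningeal fibroblasts and vessels, had its highest median at ZT22, where it ran from 8.73 to 13.2 TPM, and its lowest at ZT10, with a median of 7.07 TPM. The peak was at ZT0.652 and the amplitude 0.27 (SE 0.059, adjusted p = 0.0108). The meningeal markers without *Slc6a13* had a summed median of 60.8 TPM at ZT18, 76.7 TPM at ZT22 and, as their highest, 86.3 TPM at ZT14. *Slc6a20a* (ENSMUSG00000036814, chr9:123634770-123678885), a proline transporter, was lowest at ZT18 with 5.02 to 11 TPM (median 7.78) and had medians of 11.2 to 13.5 TPM at the other ZTs (amplitude 0.21, SE 0.055, peak ZT7.83, adjusted p = 0.0462). Without control replicate 2 at ZT10, its highest library at 19.1 TPM, the adjusted p was 0.0762. With the choroid plexus list as a covariate its adjusted p in limma was 0.0707 (amplitude 0.20), and with no filter on low TPM 0.0985. On the counts edgeR called it (adjusted p = 0.00426). The summed choroid plexus markers were also lowest at ZT18, with a median of 439 TPM against 620.8 to 878.1 TPM at the other ZTs. The meningeal markers without *Slc6a13* were lowest there as well. The cause of the low ZT18 level was not tested. Exons of other genes in GENCODE M21, on either strand, cover 14.3% of the exon bases of *Slc6a20a*, and 14.9% of those of *Slc25a33*, and reads there cannot be told apart without strand.

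*Slc16a11* (ENSMUSG00000040938, chr11:70212752-70216417), of the monocarboxylate transporter family, had the largest amplitude of the members at 0.30 (SE 0.062, peak ZT8.33, adjusted p = 0.00522). It had 9.76 to 19.4 TPM at ZT10 (median 15.8) and 6.36 to 12.5 TPM at ZT18 (median 10.2), and these ranges overlapped. The monocarboxylate transporters *Slc16a1* and *Slc16a7* did not pass in limma, with amplitudes of 0.12 and 0.13, and edgeR on the counts called *Slc16a1* (adjusted p = 0.00431).

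Of the mitochondrial carriers, 3 were called, and not all of them are named here. *Slc25a29*, which carries arginine and lysine, had 10.7 to 14.9 TPM at ZT14 (median 12.4) against a median of 8.78 TPM at ZT6, with a fitted peak at ZT15.6 and an amplitude of 0.16 (SE 0.038, adjusted p = 0.0249). *Slc25a33*, a carrier of pyrimidine nucleotides, had a median of 40.2 TPM at ZT14 and 31.4 TPM at ZT22 (peak ZT14.3, amplitude 0.12, adjusted p = 0.0462). It was not called by edgeR on the counts (adjusted p = 0.0560), while DESeq2 called it (adjusted p = 0.0429). In limma it was not called with ZT as a factor (adjusted p = 0.0818), median-of-ratios scaling (0.0709) or no filter on low TPM (0.0718). In the Golgi and endoplasmic reticulum group *Slc35e4*, of the nucleotide sugar transporter family, was called. It had 13.0 to 16.4 TPM at ZT14, above every library of ZT2, ZT18 and ZT22, and a fitted peak at ZT11.9 (amplitude 0.11, SE 0.029, adjusted p = 0.0341). The members next in order of p were the potassium-dependent sodium-calcium exchanger *Slc24a4* (peak ZT16.1, adjusted p = 0.0533), *Slc38a2*, *Slc25a16* (ZT10.8, 0.0564), the branched-chain amino acid carrier *Slc25a44* (ZT14.3, 0.0774), the peroxisomal carrier *Slc25a17* (ZT9.52, 0.0903) and the oxoglutarate carrier *Slc25a11* (ZT12.7, 0.106). None of these passed in limma, while edgeR on the counts called all 6.

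**Figure D4:**
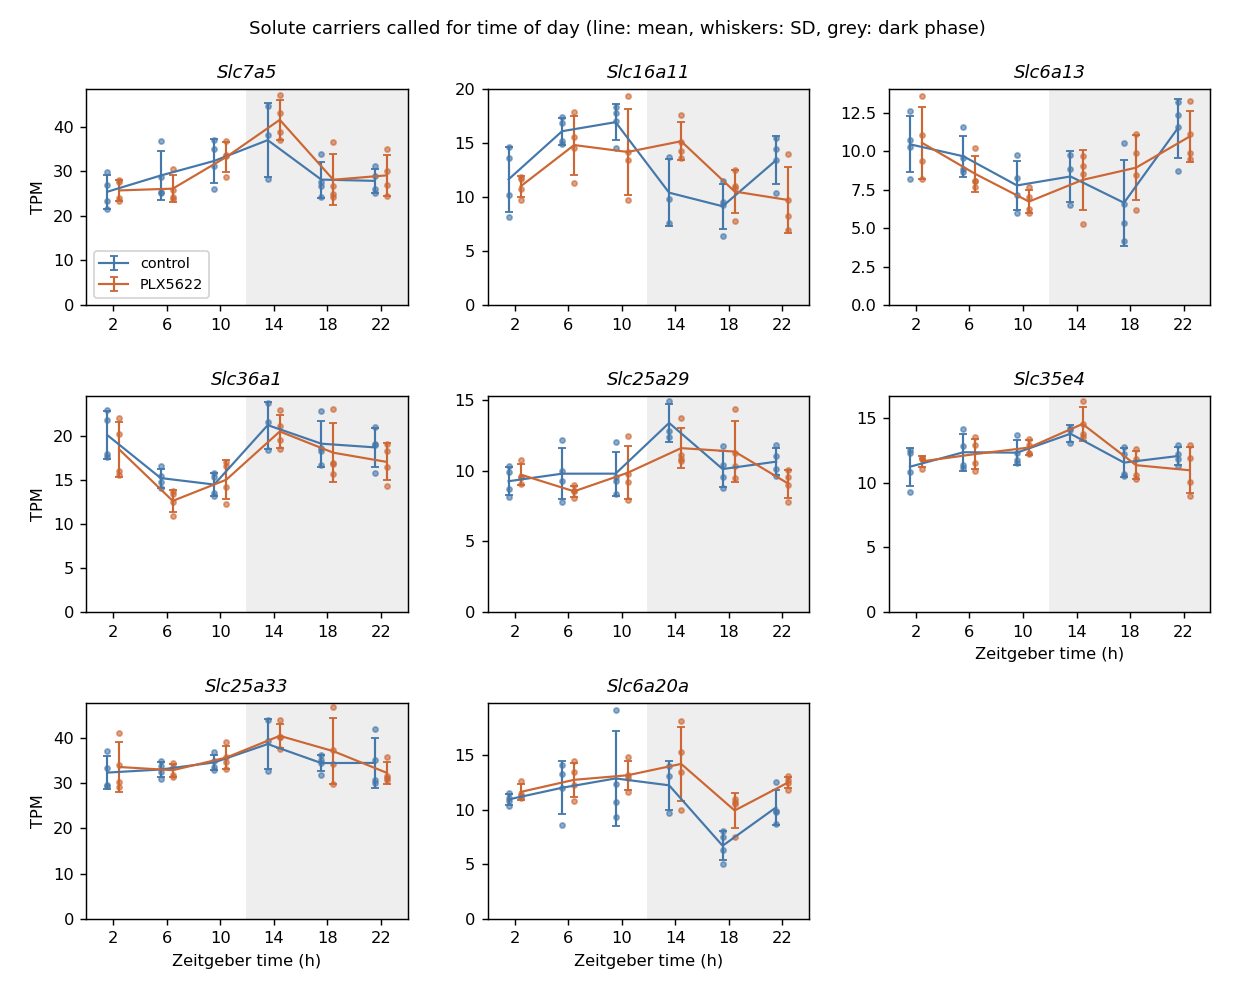
TPM (y axes, starting at 0) against ZT in hours (x axes) for 8 of the 9 solute carriers called for time of day, in order of p, with 1 point per library, the mean of each group as a line, the SD as whiskers and the dark phase in grey (control blue, PLX5622 orange). *Slc7a5*, *Slc36a1*, *Slc35e4* and the 2 *Slc25* genes have high values at ZT14, while *Slc6a20a* has its lowest mean at ZT18 in both diets and *Slc16a11* at ZT18 in control and ZT22 in PLX5622 mice.

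The 7 libraries of ZT14 stood out among the members as a whole, and less strongly among all genes tested. They held the highest value of 78 members (43.6%, with 14.9% of the libraries) and the lowest of 4 (2.23%). Over all genes tested they held the highest value of 30.4% and the lowest of 6.7%. The summed level of the members had a median of 7300 TPM at ZT14 and 6309 to 6826 TPM at the other ZTs. The share of mitochondrially encoded transcripts went the opposite way and was lowest at ZT14. Its median was 7.66% of the counts at ZT14 and 8.03% to 9.18% at the other ZTs. With that share as a covariate, also tried after seeing the data, 13 members were called, among them 7 of the 9, and *Slc25a33* lost its call. How many of all genes were called in that fit is not given.

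**Figure D5:**
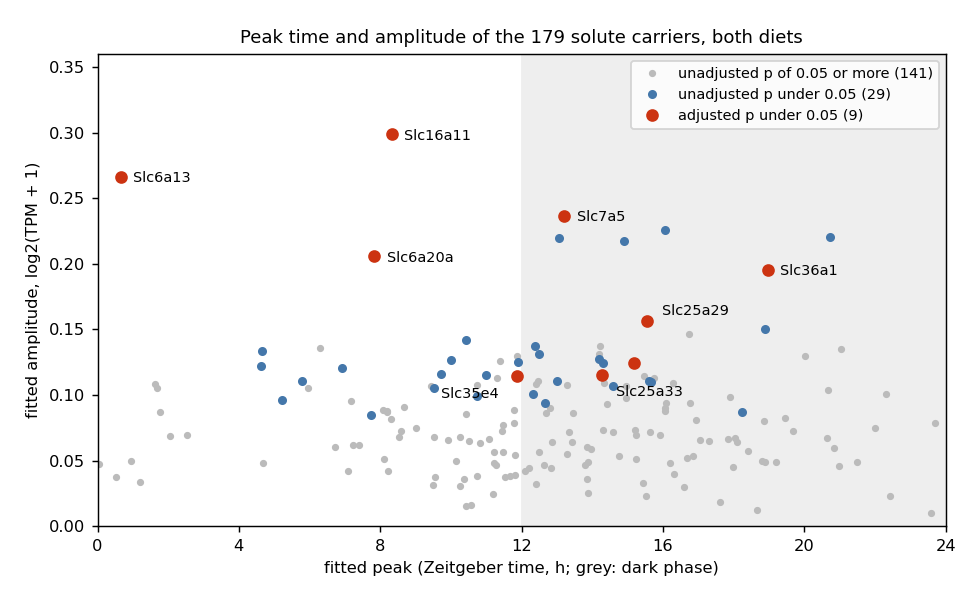
Fitted amplitude in log2(TPM + 1) (y axis) against fitted peak in ZT hours (x axis, dark phase in grey) for the 179 solute carriers over both diets, with the 9 called genes in red, 8 of them named, and the 29 others with an unadjusted p under 0.05 in blue. Of the 9 genes, 4 peak in the light phase and 5 in the dark phase.

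Of the 9 called members, 5 had a fitted peak between ZT10 and ZT16 (55.6%), against 273 of the 767 called genes among all tested (35.6%). So had 21 of the 38 members with an unadjusted p under 0.05 (55.3%), and the share of all genes at that threshold is not given. By role, 4 of the 35 carriers of amino acids, transmitters and peptides, 3 of the 33 mitochondrial carriers, 1 of the 14 sugar and monocarboxylate carriers and 1 of the 22 Golgi and endoplasmic reticulum carriers were called in limma, where the edgeR calls on the counts fell in all 9 groups. None of the 24 metal, 23 vitamin, nucleoside, phosphate, lipid and organic ion, 13 sodium, proton and calcium, 12 chloride and bicarbonate and 3 vesicular carriers was called in limma, with 2, 3, 3, 0 and 1 of their members at an unadjusted p under 0.05. Of 6 endothelial carriers, limma called *Slc7a5* alone for time of day, and edgeR on the counts called 4, *Slc7a5* and *Slc16a1* among them. The 6 endothelial markers, of which the tight junction gene *Cldn5* was called for time, had a summed median of 135.4 TPM at ZT2, 83.1 TPM at ZT10 and 104.5 TPM at ZT14.

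Whether the daily course of a member differed between the diets was tested with the interaction of diet with the cosine and sine terms in limma. No member was called (0 of 179, with 0% of all genes called), and edgeR and DESeq2 on the counts called 0 as well. At an unadjusted p under 0.05 there were 5 members (2.79%, against 4.59% of all genes). Among them were the creatine transporter *Slc6a8*, *Slc7a10*, *Slc25a23* and the anion exchanger *Slc4a2*, each with a limma adjusted p of 1. Within a diet, JTK_CYCLE, a rank test for a 24 h rhythm, called no member in control mice (0.0754% of all genes were called) or in PLX5622 mice (0.610%), with 11 and 16 members at an unadjusted p under 0.05 (8.53% and 11.1% of all genes). The limma F test within a diet called 0 members in either, with 0.247% of all genes called in control and 0.926% in PLX5622 mice. The smallest JTK_CYCLE adjusted p in PLX5622 mice was 0.0807 for *Slc7a5*, and *Slc16a11* had 0.236 in control mice. A p above the threshold in a single diet does not show that a rhythm is absent there.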

How the data were processed

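The deposited tables hold cortical RNA-seq of 47 libraries, with groups from the sample labels. For the TPM table the authors mapped reads to GRCm38.p6 with STAR and quantified TPM with Salmon and the Gencode annotation. The other deposited table holds whole-number counts per gene without normalization, for which the submitters' processing notes name STAR and featureCounts. TPM is a share of a library, so one gene's rise lowers the others. Members and gene lists were chosen with earlier results of these data known. Roles follow the family numbers of the symbols, and cell type lists are textbook markers.

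Of 54281 genes, the 14580 whose mean reached 1 TPM were tested on log2(TPM + 1) with limma 3.58.1 in R 4.3.3, with diet and the cosine and sine of ZT, their interaction for differences in rhythm, and the Benjamini-Hochberg adjusted p at 0.05. Values are TPM and a log2 fold change understates that of low genes. JTK_CYCLE (24 h, 6 phases) was written for this purpose. edgeR 4.0.16 (quasi-likelihood) and DESeq2 1.42.0 on the deposited counts were alternatives, beside scaling, filters, pseudocount, ZT as a factor, 3 residual components, a replicate block, a threshold of 0.01 and each library left out. Models with the mitochondrial share and with the choroid plexus list were added after the data were seen. limma, edgeR, DESeq2 and JTK_CYCLE were tested on simulated data. Total counts were 16597987 to 27626161 per library. Reads are not independent molecules, and replicates are separate mice.

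By rule, the members named are those called for diet or by JTK_CYCLE, the 8 largest fold changes higher and the 8 lower, the 15 with the smallest p for time of day, the 5 with the smallest interaction p, the 20 with the highest TPM, 3 at the threshold and a textbook list for each role. Others named belong to the cell type lists or are not transporters, and *Slc25a45* was named after its value was seen. A few of the 20 highest are given only in the role groups. Some members within the counts, 1 of them called for time of day, are not reported here by name. Gene positions are from GENCODE M21, and promoters from RefSeq (GRCm38.p6). Python 3.11.15 was used with pandas 2.3.3 and numpy 2.4.6, and matplotlib 3.10.9 drew the figures.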

Additional observations from a re-analysis of the deposited data

Results flagged for a closer look

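Of 143 groups of 4 mice examined for the 13 called members, 6 had a highest or lowest library that stood apart from the other 3 by Dixon's 95% criterion, where chance gives about 7.15. All 6 were groups of PLX5622 mice. *Slc36a1* had 23.1 TPM in replicate 4 at ZT18, where the others had 15.7 to 16.9 TPM. *Slc25a29* had 13.7 TPM in replicate 4 at ZT14, where the others had 10.7 to 11.1 TPM, and *Slc35e4* 11 TPM in replicate 3 at ZT2, where the others had 11.8 to 11.9 TPM. *Slc6a20a* had 7.52 TPM in replicate 2 at ZT18, against 10.5 to 11 TPM. *Slc7a11* had 11.6 TPM in replicate 1 at ZT10, against 8.13 to 8.46 TPM, and *Slc6a13* 10.2 TPM in replicate 3 at ZT6, against 7.68 to 8.07 TPM.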

How the results depend on the processing

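Several alternatives called more members than the 4 for diet (3 higher, 1 lower) and the 9 for time of day. edgeR on counts called 14 (8 higher, 6 lower) and 30, DESeq2 15 (9 higher, 6 lower) and 34, and 3 residual principal components 37 (32 higher, 5 lower) and 72, with 5 for the interaction. Each of these included the 4 called for diet, and 7, 8 and 9 of the 9 called for time. The 3 residual components were taken from what the fitted model left over, so they leave each fitted difference as it was and mainly lower the error. That they kept these calls and added more is therefore no support for them. Median-of-ratios scaling of TPM called 8 for diet (4 lower) and 21 for time, with 7 of the 9 among them, and 2 in PLX5622 mice by JTK_CYCLE. It moved the median log2 difference of all genes from 0.03 to 0.01. ZT as a factor called 2 lower for diet and 21 for time, with 7 of the 9 among them. The mitochondrial share as a covariate called 11 for diet (9 higher, 2 lower). The choroid plexus list as a covariate called 0 for diet and 7 of the 9 for time, *Slc6a20a* not among them. No filter on low TPM left 0 lower for diet and 6 of the 9 for time. A threshold of 0.01 left 0 for diet, in either direction, and 2 for time. The cause of these shifts was not tested. Among these alternatives, the share of all genes called is given only for edgeR and DESeq2. The counts of the others are therefore not read as a trait of solute carriers. No direction of a called member reversed.

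With 1 library left out, the count for diet ranged from 2 to 5, with 1 to 4 higher and 0 to 2 lower, that for time from 5 to 14, that for the interaction was 0 in all 47 fits, and that of JTK_CYCLE ranged from 0 to 3 in PLX5622 mice and was 0 in control mice. The diet count fell to 2 without PLX5622 replicate 2 at ZT2 or control replicates 1 or 2 at ZT2 or at ZT22, and the higher count to 1 without PLX5622 replicate 1 at ZT10 or 2 at ZT2, or control replicate 3 at ZT10 or 1 at ZT18. The time count was 5 without PLX5622 replicate 1 at ZT14 and 14 without control replicate 4 at ZT2. The JTK_CYCLE count was 3 without PLX5622 replicate 2 at ZT18 and 1 without replicate 3 at ZT18.

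With the replicate number as a block, 5 members were called for diet (3 higher, 2 lower) and 16 for time, with all 4 and all 9 among them. The share of all genes called with this block is not given, so these counts are not read as a trait of solute carriers. The labels do not say that a number marks a shared litter, batch or day. Same-numbered libraries of different groups had residuals with a median correlation of 0.0546 (76 of 253 pairs over 0.1, -0.247 to 0.304) and differently numbered ones -0.0189 (95 of 759 pairs over 0.1), and 24 of 47 libraries correlated best with libraries of their own number.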

Other observations

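The extreme values of the members were unevenly spread over the libraries. PLX5622 replicate 4 at ZT14 had the highest TPM of all libraries for 27 of the 179 members and the lowest for 0, control replicate 3 at ZT14 the highest for 23, and PLX5622 replicate 3 at ZT14 for 17. Without PLX5622 replicate 4 at ZT14, 4 members were called for diet in limma (2 higher and 2 lower, 3 of them among the 4 with all libraries) and 6 for time of day (all among the 9).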
